A study of Mus musculus with 3 samples.

Results

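The transcriptome of untreated mouse bone marrow-derived dendritic cells was described from 1 RNA-seq library, the control of a series of 3 samples. The series comprised cells cultured for 48 h with recombinant articulatin B chain (rATB) at 800 ng/ml, cells given buffer, and the control at 0 ng/ml, with 1 sample of each. The control was taken by its label alone, and the other libraries were not used. Marrow cells of mouse femurs and tibias had been freed of red cells and grown in medium with fetal bovine serum and granulocyte-macrophage colony-stimulating factor (GM-CSF), with floating cells moved to fresh plates every other day, and the floating cells of day 6 were kept for a further 48 h without addition. The sources used here do not state the strain or number of mice, or whether marrow was pooled. Since the sample had no replicate, its values carry counting error only, and nothing is known of the spread between cultures.

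Dendritic cells take up material from their surroundings, digest it in acidic endosomes and lysosomes, load the peptides on major histocompatibility complex (MHC) molecules, and show them to T cells together with co-stimulatory proteins. GM-CSF drives marrow precursors towards such cells and also towards macrophages, and cultures made this way are known to hold both kinds. In bulk RNA, fewer cells of one type and less RNA per cell cannot be told apart.

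The library held 17776492 reads assigned to 34590 gene symbols. Levels are given in reads per 1000000 of that total (RPM), and 1 RPM corresponded to 17.8 reads. Exact (Clopper-Pearson) 95% intervals had a half-width of 0.463% of the value at 10000 RPM, 4.68% at 100 RPM and 49.4% at 1 RPM. A count of 0 reads allows a level of up to 0.169 RPM when the limit is set at 3 reads, and the exact interval of such a gene reached 0.2075 RPM. Intervals and limits speak to counting error alone, because reads without molecular identifiers are not independent molecules. Long transcripts give more reads than short ones at the same number of molecules, so an order of genes by RPM is an order by reads. RPM per kilobase of the principal transcript is given where levels of different genes are compared.

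Of the 34590 symbols, 12565 (36.3%) reached 1 RPM, 4960 had reads below that level and 17065 (49.3%) had 0 reads. Among the 20190 protein-coding symbols, 11231 (55.6%) reached 1 RPM and 6351 (31.5%) had 0 reads, and their median was 3.43 RPM. The 10 symbols with most reads took 12.4% of all reads, with an interval of 12.39% to 12.42%. It took 681 symbols to reach 50% of the reads, counted from the top, and 5160 to reach 90%. Only 74 symbols stood at 1000 RPM or more, and 2106 at 100 RPM or more. Protein-coding genes took 96.2% of reads, processed pseudogenes 1.89%, and genes of the mitochondrial genome 2.07%.

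**Figure D1:**
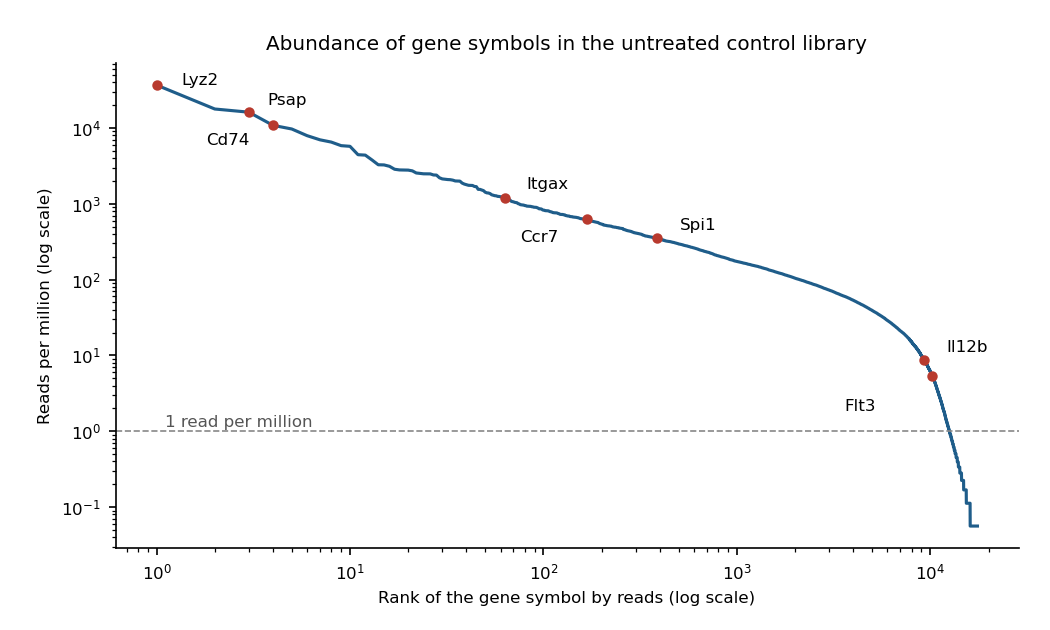
Level in RPM of each symbol with reads (vertical, log scale) against its rank by reads (horizontal, log scale) in the control library, with 8 genes marked and a dashed line at 1 RPM. Lyz2 led at 36750.4 RPM, Itgax stood at rank 63 and Flt3 at rank 10245.

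The top of the ranking was held by genes of digestion, antigen presentation and iron storage. Lyz2 (ENSMUSG00000069516), lysozyme of myeloid cells, had 653293 reads, 36750.4 RPM (interval 36663 to 36838), which was 3.68% of the library. Fth1 (ENSMUSG00000024661), the heavy chain of the iron store ferritin, followed at 17759.9 RPM (interval 17698.5 to 17821). Psap (ENSMUSG00000004207), the precursor of the saposins that help lysosomal enzymes to break down lipids, stood at 16127 RPM (interval 16068 to 16185). Cd74 (ENSMUSG00000024610), the invariant chain that escorts MHC class II molecules, followed at rank 4 with 10811 RPM (interval 10763 to 10859.5). The first 10 were completed by mt-Co1, a mitochondrial cytochrome oxidase subunit, the lysosomal protease gene Ctsd, the actin-binding peptide gene Tmsb4x, the matrix gene Fn1, the chemokine gene Ccl6 and the elastase gene Mmp12, from 9682 RPM for mt-Co1 to 5719 RPM for Mmp12.

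Ranks 11 to 30 ranged from 4434 to 2127 RPM. They included the GM-CSF receptor chain Csf2rb, the M-CSF receptor Csf1r, the cathepsin genes Ctss, Ctsb and Ctsl, the glycoprotein gene Gpnmb, the pore-forming protein gene Mpeg1, the integrin chain Itgam, the protease inhibitor gene Cst3, the galectin gene Lgals3, complement C3, thrombospondin Thbs1, the MHC class II genes H2-Aa and H2-Ea-ps, and Cybb, the core of the phagocyte NADPH oxidase. The actin gene Actb, the elongation factors Eef2 and Eef1a1, mt-Cytb and the noncoding RNA Neat1 made up the rest. Of the 30 leading symbols, 19 were on a list of secreted, surface, lysosomal or transcription factor genes. For 7 of the 29 pairs of neighbours in this order, such as Gpnmb above Ctsb or Csf1r above Thbs1, the interval of the ratio of their reads included 1, so those orders are within counting error.

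Per kilobase the same head of the list remained, with short transcripts moved up. Lyz2 stood at 27926 RPM per kilobase, Fth1 at 19117, Tmsb4x at 9069 and Cd74 at 7668. The long Fn1 transcript, at rank 8 by reads, was at rank 56 per kilobase with 783 RPM per kilobase. Of the 30 symbols leading by reads, 18 were also among the 30 leading per kilobase. The short genes that entered included Cd52, a small surface glycoprotein of leukocytes, at 1601 RPM per kilobase, and B2m, the light chain of MHC class I, at 1619 RPM per kilobase.

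Some genes that every cell needs had few reads, and many of them have near-identical copies in the genome. For each gene, the share of 31-base stretches of its principal transcript found in no other gene of the table was computed, here called its unique share. Gapdh, a glycolytic enzyme with many pseudogene copies, had 15.2 RPM and a unique share of 15.9%. Ppia, cyclophilin A, had 8.89 RPM at a unique share of 42.9%. Other genes went the other way. H3f3a and Hmgb1, with unique shares of 84.5% and 78.1%, had 13.7 and 14.2 RPM, and Eef1a1, at 35.1%, had 2547 RPM. The stretches of 31 bases are also shorter than the 150-bp reads. Of 77 genes of ribosomal proteins, the 20 with a unique share under 25% had a median of 7.37 RPM, and the 13 with 75% or more a median of 128 RPM. Over these 77 genes, as a description, Pearson's r between the unique share and log2 RPM was 0.46 and Spearman's rho 0.43, and the genes share 1 library. Reads also stood on the copies: Tpt1 had 37.6 RPM and its pseudogene Tpt1-ps3 586 RPM, and Rps29 had 1.07 RPM and the pseudogene Gm14303, which has a unique share of 0%, 496 RPM. The sources used here do not state how multiply aligned reads were counted, and the part of this in these low values was not tested. Low values of genes with a small unique share are not read as low expression. Of the 30 leading symbols, 9 had a unique share under 90%, Lyz2 among them at 67.2%, with its neighbour Lyz1 at 21.9 RPM.

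**Figure D2:**
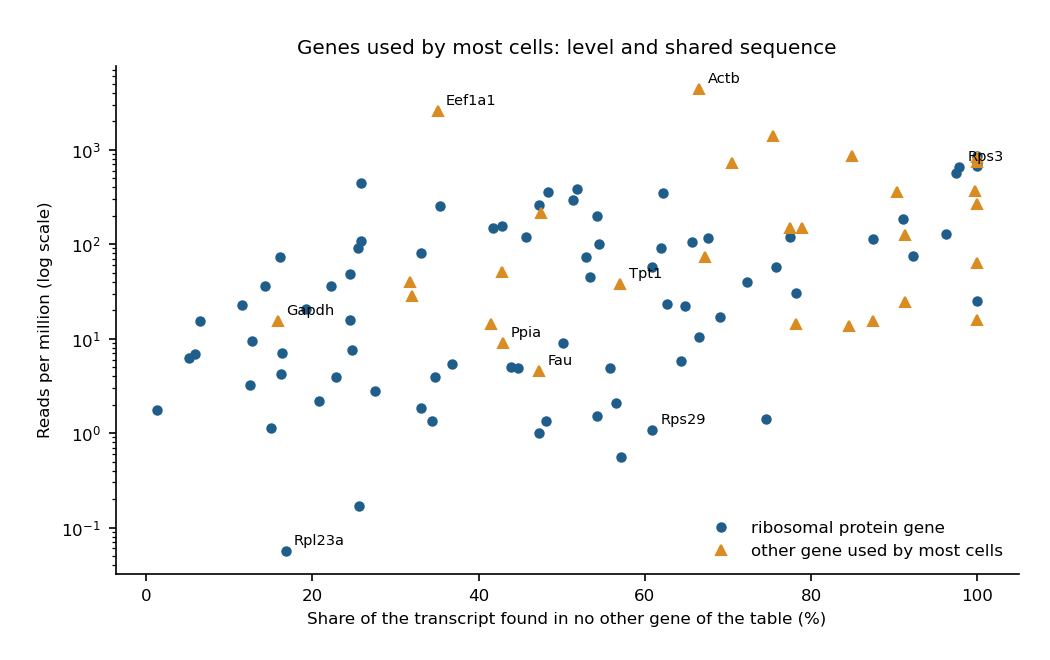
Level in RPM (vertical, log scale) against the unique share of the principal transcript in percent (horizontal) for 77 ribosomal protein genes (circles) and 29 other genes used by most cells (triangles) in the control library. Genes near the left edge share most of their sequence with another gene; the ribosomal protein gene Rpl23a had 1 read at a unique share of 16.8%.

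The 4 markers chosen for dendritic cells, with earlier results of these data known, were all present. Lyz2, a gene of myeloid cells in general, and Cd74, of cells with MHC class II, stood at ranks 1 and 4. Neither sets dendritic cells apart from macrophages. Itgax (ENSMUSG00000030789), the CD11c integrin chain, used as a marker of mouse dendritic cells and also carried by some macrophages, had 21331 reads, 1200.0 RPM (interval 1184 to 1216). Ccr7 (ENSMUSG00000037944), which steers migrating dendritic cells into lymph nodes, had 11047 reads, 621 RPM (interval 609.9 to 633). Over a list of 26 dendritic cell markers, 25 reached 1 RPM (96.2%, against 55.6% of all protein-coding symbols). None was at 0 reads, and the median was 233 RPM. The low end was formed by Flt3, the receptor of steady-state dendritic cell precursors, with 94 reads (5.29 RPM), and Xcr1, the chemokine receptor of cross-presenting cells, with 14 reads (0.788 RPM). Zbtb46, a transcription factor of classical dendritic cells, stood at 35.1 RPM and Clec9a, a receptor for dead cells, at 54.9 RPM.

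Macrophage markers were present as well, and 18 of 20 reached 1 RPM, with a median of 261 RPM. Csf1r had 2781 RPM, Apoe, a lipid carrier, 725 RPM, Cd14, the co-receptor for lipopolysaccharide, 642 RPM and Emr1, which encodes the F4/80 antigen, 521 RPM. Lower in the list were the mannose receptor gene Mrc1 at 132 RPM, Mertk, a receptor for dying cells, at 44.2 RPM and the haemoglobin scavenger gene Cd163 at 38.4 RPM. The lowest were Timd4 at 2.31 RPM, Cd5l at 4 reads and Vsig4 at 0 reads. Both lists were thus nearly complete, and the share of cells of each kind cannot be read from bulk RNA. Of 10 monocyte markers, 8 reached 1 RPM (80.0%, against the same 55.6%). They were led by Fn1 and by Ccr2, the receptor for monocyte chemoattractants, at 590 RPM. Plac8 had 5 reads and Ly6c2, with a unique share of 47.6%, 11 reads.

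The lists of other cell types differed in how many members were detected, to be read against 55.6% of all protein-coding symbols. Of 16 neutrophil markers 10 reached 1 RPM (62.5%), with a median of 4.25 RPM. Mmp8 and Mmp9, a collagenase and a gelatinase, had 1988 and 501 RPM. The receptor gene Csf3r had 61.5 RPM and S100a8, a calcium-binding protein of granulocytes, 22.6 RPM. Of the primary granule genes, Mpo (unique share 85.3%) and Ctsg had 0 reads, Elane 2 reads and Prtn3 56 reads (3.15 RPM). The other granule genes Lcn2, Ngp, Ltf and Camp had 211, 199, 95 and 19 reads. In the T cell list 3 of 19 genes reached 1 RPM, none above 4.84 RPM, and Cd3e, Cd3g and Trac had 0 reads. In the B cell list it was 3 of 15, with Cd22, a sialic acid-binding receptor, at 56.9 RPM and Ighm at 18.4 RPM, while Igkc, Cd79b, Ms4a1 and Pax5 had 0 reads. Of 14 markers of natural killer and innate lymphoid cells, 5 reached 1 RPM, and Il7r, the interleukin-7 receptor chain, stood alone at 271 RPM with Ncr1, Prf1 and Gzmb at 0 reads. In the erythroid and megakaryocyte list, Pf4 and Ppbp, platelet chemokines that myeloid cells also make, had 485 and 154 RPM, and Gata1, a red cell transcription factor, had 0 reads. The globin genes were at 0 reads too, with unique shares of 8.97% to 40.6%. Of 11 plasmacytoid dendritic cell markers 7 reached 1 RPM (63.6%), with a median of 11.3 RPM, and the defining Siglech had 2 reads. In the list of eosinophils, basophils and mast cells it was 4 of 16, with a summed level of 100.4 RPM. Of 16 stromal and endothelial markers 8 reached 1 RPM, none above 60.8 RPM, and the collagen genes Col1a2 and Col3a1 had 0 reads. In the osteoclast list 8 of 10 reached 1 RPM (80.0%), with a median of 52.3 RPM. Acp5, a tartrate-resistant phosphatase, had 376 RPM and Ctsk, the osteoclast protease, 24.3 RPM, while Calcr, the calcitonin receptor, had 0 reads.

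**Figure D3:**
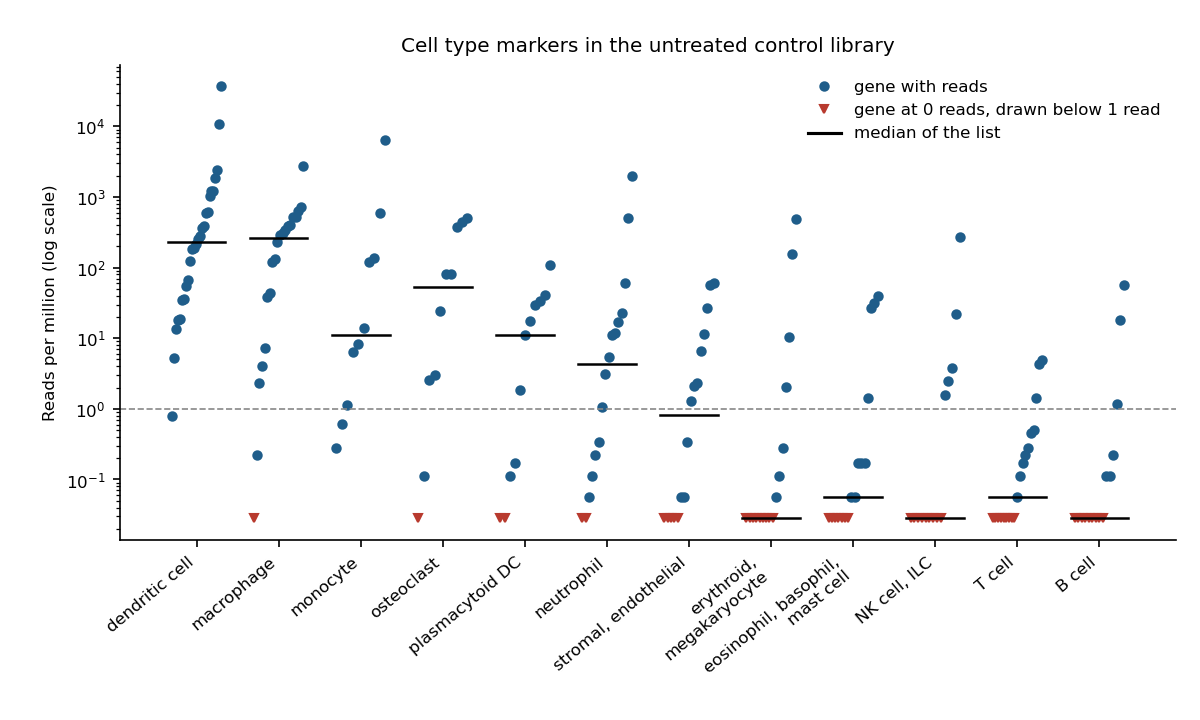
Level in RPM (vertical, log scale) of each gene in 12 lists of cell type markers in the control library; circles are genes with reads, triangles are genes at 0 reads drawn below the level of 1 read, black bars are list medians, and the dashed line is 1 RPM. Dendritic cell and macrophage medians stood at 233 and 261 RPM, and the B cell, natural killer cell and erythroid medians at 0.

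Secreted products included some of the genes with most reads. Of the 192 genes on the list, 154 reached 1 RPM (80.2%, against 55.6% of all protein-coding symbols), 19 were below it and 19 at 0 reads, with a median of 28.6 RPM and 11.8% of all reads. After Lyz2 and Psap came Fn1, fibronectin, with 6507 RPM. Ccl6, a chemokine gene of mouse myeloid cells, had 103758 reads, 5837 RPM (interval 5801 to 5872), and its relative Ccl9 had 1751 RPM. Mmp12, the macrophage elastase, had 5719 RPM, and all 8 matrix metalloprotease genes of the list reached 1 RPM, the lowest being Mmp27 at 1.91 RPM. Gpnmb, a glycoprotein that is shed from the surface, stood at 3268 RPM, Thbs1 at 2777 RPM, the central complement component C3 at 2517 RPM and Cst3, cystatin C, at 2477 RPM. Lgals3, galectin-3, had 2398 RPM and Pla2g7, an enzyme that inactivates platelet-activating factor, 2048 RPM. Next came Mmp8, then Ccl9, then Grn, the lysosomal growth factor progranulin, with 1690.3 RPM, and B2m with 1392 RPM. Set per kilobase, 11 of these 15 leaders remained among the first 15, with Ccl6 at 4053, Cst3 at 2880 and Mmp12 at 1586 RPM per kilobase. The chemokine gene Ccl17, whose product draws T cells, entered at 1136 RPM per kilobase. Klk1b11, a kallikrein gene of a family of close copies (unique share 70.5%), entered as well at 1475 RPM per kilobase.

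Of the surface protein genes 269 of 300 reached 1 RPM (89.7%, against 55.6% of all protein-coding symbols), with a median of 80.2 RPM and 7 genes at 0 reads. Cd74 led, and Csf2rb, the signalling chain shared by the GM-CSF, interleukin-3 and interleukin-5 receptors, was next at 4434 RPM. Its mouse duplicate Csf2rb2 had 1999 RPM, and 28.9% of the Csf2rb stretches also occur in Csf2rb2, so the split between the pair is uncertain. The ligand-binding chain Csf2ra stood at 503 RPM. Csf1r had 2781 RPM, so the receptors for M-CSF and GM-CSF were both among the leading genes by reads. Itgam, Itgb2 and Itgax, the chains of complement receptors 3 and 4, had 2478, 1786 and 1200.0 RPM. The MHC class II chains H2-Aa, H2-Eb1 and H2-Ab1 stood at 2387, 1873 and 1031 RPM, and the class I heavy chain H2-D1 at 1232 RPM with a unique share of 72.4%. Clec4n, which encodes the fungal receptor dectin-2, had 1995 RPM, Sirpa, a receptor of the CD47 signal, 1547 RPM, and Ifitm1, an antiviral membrane protein, 874 RPM. Per kilobase, 11 of the first 15 remained. There the order was led by Cd74, H2-Aa with 2116, Clec4n with 1623 and Cd52 with 1601 RPM per kilobase. Tyrobp, the adaptor of many myeloid receptors, came next with 1345 RPM per kilobase. This order depends on the length used. With the merged length of all exons, H2-Aa had 628 RPM per kilobase, below Clec4n at 1405, Tyrobp at 1137 and Cd52 at 693.

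**Figure D4:**
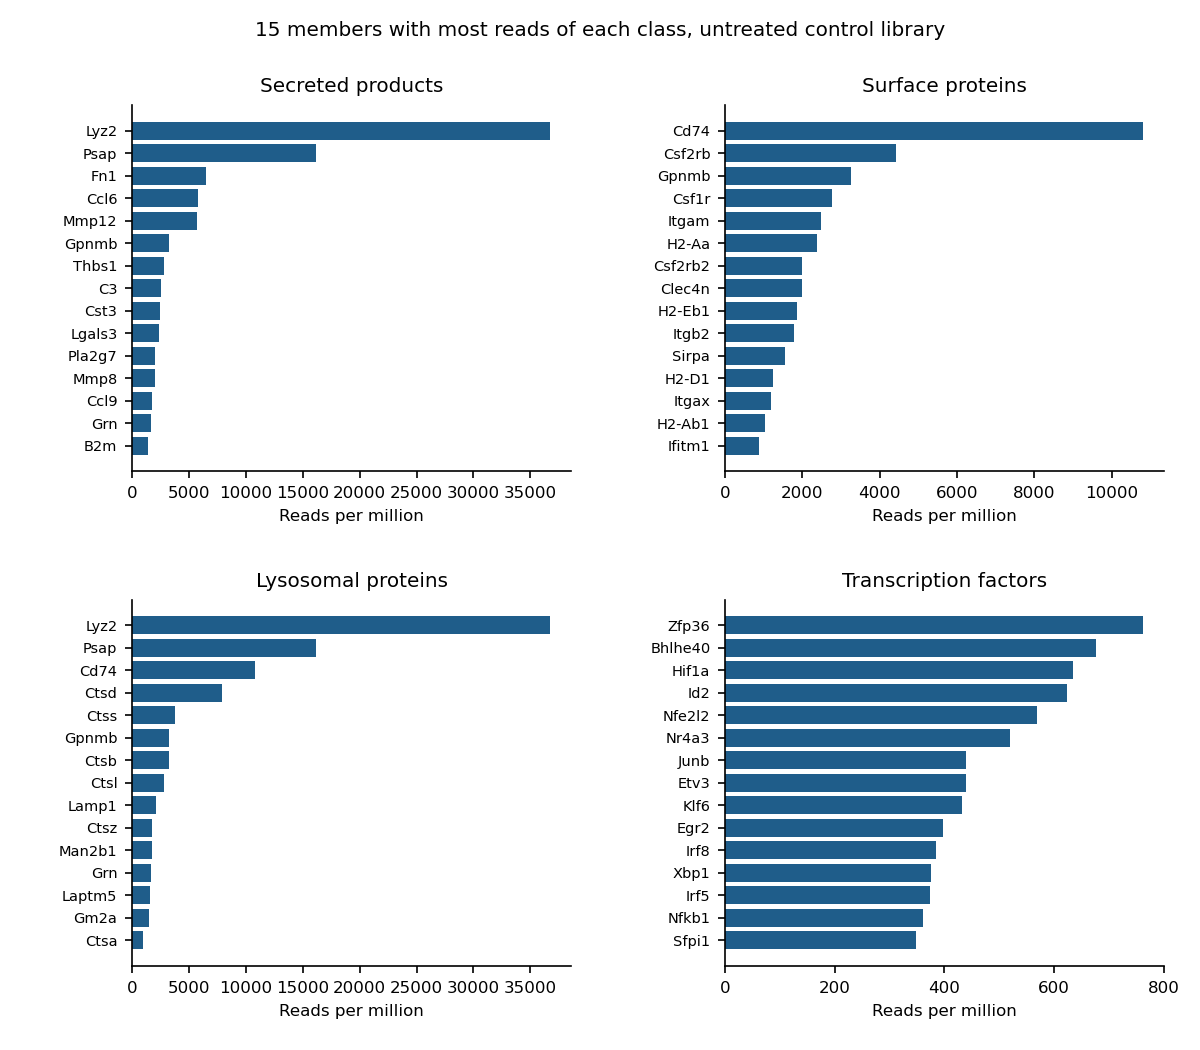
Level in RPM (horizontal, linear, each panel on its own scale) of the 15 members with most reads in the lists of secreted, surface, lysosomal and transcription factor genes in the control library. Lyz2, Psap, Gpnmb and Grn are among the genes on both the secreted and the lysosomal list, and Cd74 is on both the surface and the lysosomal list. The read shares of these lists thus overlap. The transcription factor panel ends at 800 RPM.

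Lysosomal genes were detected almost throughout. Of 151 genes, 148 reached 1 RPM and none was at 0 reads. Of all protein-coding symbols, 55.6% reached 1 RPM and 31.5% had 0 reads. The counts of cathepsin and proton pump genes below are to be read against the same shares. The median of the lysosomal list was 135 RPM, against 3.43 RPM over all protein-coding symbols. Together the 151 genes took 12.2% of the reads, of which Lyz2, Psap and Cd74 were the largest items. All 12 cathepsin genes of the list, which encode proteases and a protective protein of the lysosome, reached 1 RPM, and 8 of them 100 RPM. Ctsd, an aspartic protease, led at 7908 RPM, followed by Ctss, the protease that trims the invariant chain, at 3777 RPM, and by Ctsb, Ctsl and Ctsz at 3251, 2852 and 1746 RPM. Per kilobase Ctsb, at 685, stood below Ctsl at 1447 and Ctsz at 1211 RPM per kilobase. With the merged length of all exons instead, Ctsb had 537 and Ctsl 439 RPM per kilobase, so the order of this pair depends on the length used. Ctsf was the lowest at 20.3 RPM. All 18 genes of the proton pump that acidifies the lysosome, with its accessory proteins, were detected, between 43.9 RPM for Atp6v0c and 928 RPM for Tcirg1. Other leaders were Lamp1, the main membrane glycoprotein, with 2077 RPM, Man2b1, which removes mannose, with 1742 RPM, Laptm5, a membrane protein of blood cells, with 1548 RPM, Gm2a, an activator of ganglioside breakdown, with 1489 RPM and Ctsa with 994 RPM. Per kilobase 13 of the first 15 remained. The 3 genes under 1 RPM were Lamp3, Mcoln3 and Epdr1, and Lamp3 is known as a marker of mature human dendritic cells.

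Promoter sequences were set beside these levels, since many lysosomal genes are known to share a short element, the CLEAR box, that factors of the TFEB family bind. RefSeq windows of build GRCm38.p6, from 250 bases before to 50 after the start, matched 18014 symbols of the table. The letters TCACGTG, read on both strands, occurred in a window of 25 of 120 lysosomal genes (20.8%), against 5.05% of all 18014 genes. The share was 0.69% for secreted, 2.18% for surface and 7.73% for transcription factor genes. Among protein-coding genes it was 7.05% for the 8982 at 1 RPM or more and 2.65% for the 4677 at 0 reads. The genes of the factors themselves were modest in reads, with Tfe3 at 147 RPM, Mitf at 72.6 RPM, Tfec at 69.4 RPM and Tfeb at 46.1 RPM. The element was absent from the windows of the leading genes Lyz2, Psap and Ctss, which says only that these letters are not in those windows. The 5 lysosomal genes with most reads that hold it wholly before their start are shown, 100 bases each, 5′ to 3′ along the gene, with TCACGTG or its reverse complement CACGTGA in capitals. Where the capitals read TCACGTGA both overlap.
Ctsd, chr7:142387899-142387998, minus strand: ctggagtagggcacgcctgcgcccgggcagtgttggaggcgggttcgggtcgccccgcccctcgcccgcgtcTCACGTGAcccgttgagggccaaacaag
Lamp1, chr8:13159061-13159160, plus strand: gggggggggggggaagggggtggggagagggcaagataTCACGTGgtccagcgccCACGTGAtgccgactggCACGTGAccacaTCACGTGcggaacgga
Ctsa, chr2:164833673-164833772, plus strand: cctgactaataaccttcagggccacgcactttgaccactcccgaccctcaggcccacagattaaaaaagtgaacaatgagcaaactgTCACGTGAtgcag
Cd164, chr10:41519340-41519439, plus strand: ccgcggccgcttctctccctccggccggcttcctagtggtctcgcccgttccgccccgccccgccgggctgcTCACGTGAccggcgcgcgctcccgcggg
Ifi30, chr8:70766814-70766913, minus strand: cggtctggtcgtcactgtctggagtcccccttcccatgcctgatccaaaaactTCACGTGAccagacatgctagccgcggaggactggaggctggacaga
Lamp1, at 2077 RPM, held the letters 4 times within 62 bases of its start, and the other 4 stretches held 1 palindrome each.

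In the list of MHC genes and their partners, 30 of 34 reached 1 RPM (88.2%, against 55.6% of all protein-coding symbols) and none was at 0 reads. The letters CCAAT, bound by the factor NF-Y and part of the known module of MHC class II promoters, occurred on either strand in windows of 21 of 24 MHC genes (87.5%), against 41.9% of all genes. The 3 matched genes with most reads, with CCAAT or its reverse complement ATTGG in capitals, are shown in the same way because they carry the class II and class I chains named above.
H2-Aa, chr17:34287847-34287946, minus strand: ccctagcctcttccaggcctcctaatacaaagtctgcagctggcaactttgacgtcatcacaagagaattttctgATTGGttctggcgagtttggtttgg
H2-Eb1, chr17:34305757-34305856, plus strand: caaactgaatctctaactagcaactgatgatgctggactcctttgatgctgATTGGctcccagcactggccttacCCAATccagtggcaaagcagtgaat
B2m, chr2:122147559-122147658, plus strand: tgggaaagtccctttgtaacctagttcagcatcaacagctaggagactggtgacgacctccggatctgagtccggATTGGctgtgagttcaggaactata
Ciita, the co-activator that MHC class II promoters need, stood at 214 RPM and H2-DMa, which exchanges peptides on class II, at 349 RPM. H2-Oa and H2-Ob, known from B cells as brakes on that exchange, had 18.8 and 23.7 RPM, and H2-Eb2 had 6 reads. TATAAA, the TATA box, occurred in windows of 28.3% of secreted, 29.2% of MHC and 6.67% of lysosomal genes, against 14.1% of all genes. For interferon and CC chemokine genes the TATAAA share was 27.8% and 25.0%. Among protein-coding genes it was 8.38% at 1 RPM or more and 23.5% at 0 reads. GAGGAA, the core that PU.1 binds, occurred in 49.3% of surface genes and 30.5% of all genes. Its share was 50.0% for interferon genes, which were at 0 reads, 43.8% for CC chemokine genes and 20.8% for MHC genes. Protein-coding genes at 1 RPM or more held it in 30.6% and those at 0 reads in 29.1%. These 4 motifs were picked after the shares of 14 had been seen, and a match of letters is not a binding site.

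Of the transcription factor genes 216 of 245 reached 1 RPM (88.2%, against 55.6% of all protein-coding symbols) and 17 had 0 reads. Their median was 44.9 RPM, and together they took 2.19% of all reads. None was among the 100 leading symbols. First by reads on this list was Zfp36, with 762 RPM at rank 113. It encodes an RNA-binding protein that shortens the life of cytokine messages, not a transcription factor. Next came Bhlhe40, a repressor of the helix-loop-helix family, with 677 RPM. Hif1a, the oxygen-sensing factor, had 634 RPM, Id2, which lacks a DNA-binding domain and is needed for dendritic cell development, 624 RPM, and Nfe2l2, the regulator of antioxidant genes, 569.6 RPM. Id2 was first per kilobase, at 491 RPM per kilobase. Stimulus-responsive factors followed, with Nr4a3 at 519 RPM, Junb at 439.3 RPM, Klf6 at 432 RPM and Egr2 at 398 RPM. Etv3, an Ets-family repressor, was at 439.1 RPM, within counting error of Junb in reads, but at 82.7 against 243 RPM per kilobase, and Xbp1, a factor of the secretory pathway, at 376 RPM.

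The factors that define the dendritic lineage were spread over a wide range. Irf8 and Irf5 stood at 384 and 374 RPM and Irf4, linked to cells that prime helper T cells, at 277 RPM. Sfpi1, now named Spi1, which encodes PU.1, the master factor of myeloid cells, had 348 RPM. Batf3, needed for cross-presenting dendritic cells, had 18.1 RPM. All 5 NF-kB subunit genes were detected, from Rel at 68.9 RPM to Nfkb1 at 360.2 RPM, and all 7 STAT genes, from Stat4 at 55.2 RPM to Stat6 at 320 RPM. Of factors known from other lineages, Gata2 of mast cells and progenitors had 40.2 RPM, Tcf4 and Spib of plasmacytoid dendritic cells 41.1 and 33.6 RPM and Gata3 of T cells 1.58 RPM. Among the 17 at 0 reads were Pax5 and Ebf1 of B cells, Foxp3 and Bcl11b of T cells, Eomes and Tbx21 of lymphocyte subsets, Gata1 of red cells, and Hoxa9 of early progenitors. Per kilobase 11 of the first 15 remained, and Ybx1, Fos, Drap1 and Atf4 entered.

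Immune gene families were then read for what was active and what was silent. Over 20 families holding 623 genes, 350 genes (56.2%) reached 1 RPM, close to the 55.6% of all protein-coding symbols, 108 were below it and 165 (26.5%) had 0 reads, against 31.5% of all protein-coding symbols. The families as a whole were thus near the background, and they differed among themselves. The share of each family at 1 RPM or more is to be read against the same 55.6%, and each count at 0 reads against the same 31.5%. Of the 165 genes at 0 reads, 120 had a unique share of 90% or more and 31 a smaller one, and 14 had no value.

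**Figure D5:**
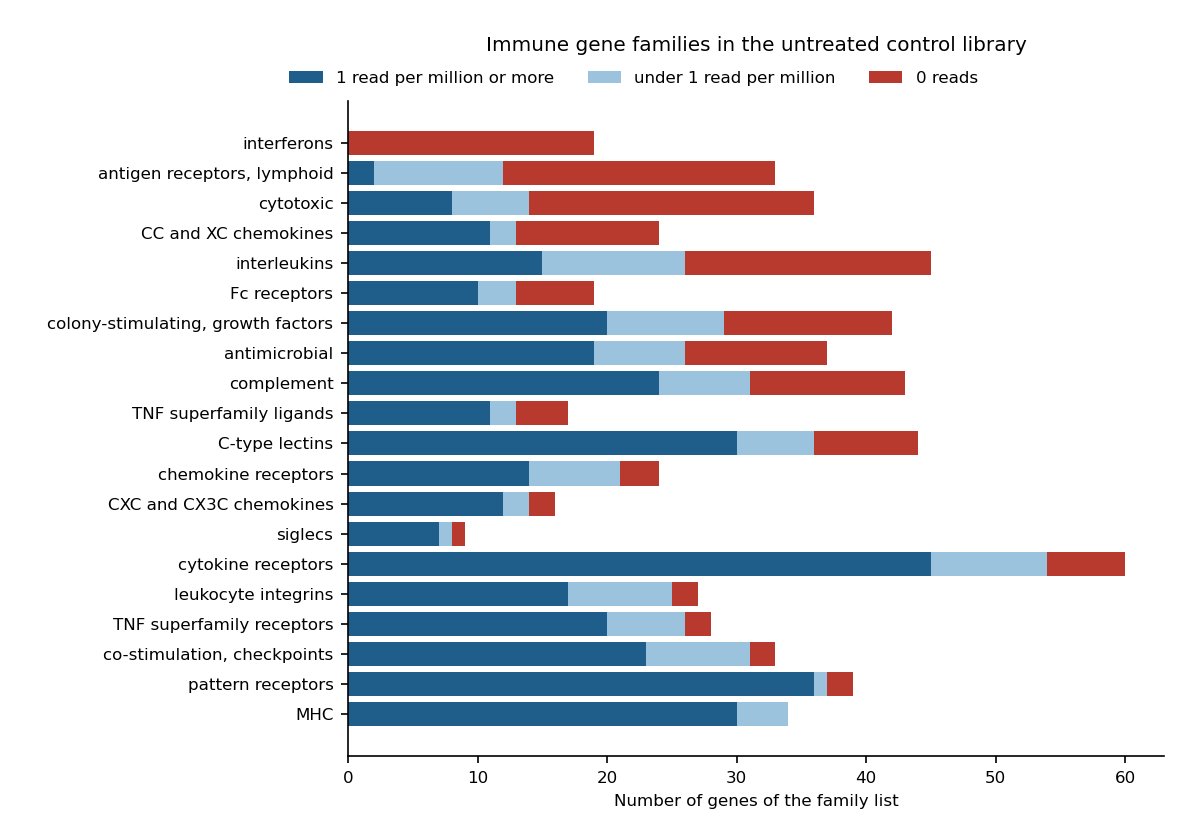
Number of genes (horizontal) at 1 RPM or more, below 1 RPM and at 0 reads in each of 20 immune gene families in the control library, ordered with the largest share at 0 reads on top. All 19 interferon genes were at 0 reads, and no MHC gene was.

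Interferons were the only family wholly at 0 reads, with 19 of 19 genes. Only 6 of them had a unique share of 90% or more and 9 had no value, so for most the 0 is not read as silence. Ifnb1 and Ifng, the type I interferon beta and the type II interferon, have unique shares of 100%. The receptor chains were present, with Ifnar1 at 196 RPM, Ifnar2 at 84.5 RPM, Ifngr1 at 247 RPM and Ifngr2 at 181 RPM. The interferon-induced sensor genes Ifih1, Ddx58 and Zbp1 had 37.2, 48.5 and 25.1 RPM.

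Interleukin genes were split between a few abundant members and many at 0. Of 45 genes, 15 reached 1 RPM (33.3%) and 19 had 0 reads. Il1rn, the receptor antagonist, had 518 RPM and Il1b, its agonist, 509.6 RPM, with overlapping intervals of 507 to 528 and 499 to 520.2 RPM. Per kilobase Il1b was higher, at 376 against 209 RPM per kilobase for Il1rn. Il1a followed at 150 RPM, and Osm, which encodes oncostatin M, at 53.7 RPM. Among the cytokines by which dendritic cells direct T cells, Il12b had 154 reads (8.66 RPM), Il12a 18 reads (1.01 RPM), Il6 301 reads (16.9 RPM), Il27 32 reads (1.80 RPM), Il10 1 read and Il23a 0 reads. The T cell cytokine genes Il4, Il13, Il17a, Il21 and Il9 had 0 reads, and Il2 had 1 read. Receptors for cytokines were broadly present, with 45 of 60 genes at 1 RPM or more and 6 at 0 reads. Csf2, the gene of GM-CSF itself, had 0 reads in cells grown in that cytokine, while Csf1, the ligand of the M-CSF receptor, had 130 RPM.

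Chemokine genes, whose products direct cell migration, were read in 2 lists. In the CC and XC family 11 of 24 genes reached 1 RPM (45.8%) and 11 had 0 reads. Beside Ccl6 and Ccl9, Ccl22, whose product attracts regulatory T cells, had 1204 RPM and Ccl17 584 RPM. Ccl5 stood at 171 RPM and the inflammatory Ccl3, Ccl4 and Ccl2 at 83.5, 18.9 and 16.7 RPM. Members at 0 reads included Ccl1, Ccl11, Ccl20 and Xcl1. Ccl19 was at 0 reads too, but with a unique share of 26.4% it is not read as silent. In the CXC and CX3C family 12 of 16 reached 1 RPM and 2 had 0 reads, and it was led by Pf4 at 485 RPM, the neutrophil attractant Cxcl3 at 428 RPM and Cxcl16 at 399 RPM. The interferon-induced Cxcl9, Cxcl10 and Cxcl11 had 4, 38 and 3 reads. Of 24 chemokine receptors 14 reached 1 RPM (58.3%, near the 55.6% of all protein-coding symbols). Ccr7, Ccr2 and Ccr1 had 621, 590 and 461 RPM and Ccrl2 76.9 RPM. Ccr8, Cxcr1 and Darc had 0 reads.

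Pattern receptor genes were nearly all detected. Of 39 genes 36 reached 1 RPM (92.3%), and Nlrp6 and Nlrp12 had 0 reads. After Cd14 came Tlr2, for bacterial lipoproteins, at 356 RPM, Tlr13, for bacterial ribosomal RNA, at 201 RPM, Tmem173, which encodes STING, at 172 RPM, and the inflammasome sensor Nlrp3 at 160 RPM. Tlr3 and Tlr5, for double-stranded RNA and flagellin, were low at 9.90 and 4.95 RPM. Of 44 C-type lectin genes 30 reached 1 RPM (68.2%) and 8 had 0 reads. Clec7a (dectin-1) at 696 RPM was second to Clec4n, and Cd207, the Langerhans cell lectin langerin, was at 0 reads. Among 19 Fc receptor genes 10 reached 1 RPM (52.6%, near the 55.6% of all protein-coding symbols), led by Fcgr3 at 623 RPM, the inhibitory Fcgr2b at 354 RPM and the shared signalling chain Fcer1g at 276 RPM. The IgE receptor chains Fcer1a and Ms4a2 had 0 reads. Of 9 siglec genes 7 reached 1 RPM (77.8%), led by Cd33 at 181 RPM, and Siglec15 had 0 reads. In the integrin list 17 of 27 genes reached 1 RPM (63.0%, against 55.6% of all protein-coding symbols) and Itga9 and Itgb6 had 0 reads.

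Co-stimulatory genes held both activating and inhibitory members. Of 33 genes 23 reached 1 RPM (69.7%, against 55.6% of all protein-coding symbols) and 2, Timd2 and Vtcn1, had 0 reads. Cd274, which encodes PD-L1, had 621 RPM, 4632428N05Rik, which encodes the checkpoint VISTA, 392 RPM, Cd86 183 RPM, Pdcd1lg2, which encodes PD-L2, 148 RPM and Cd80 66.8 RPM. In the TNF family 11 of 17 ligand genes (64.7%) and 20 of 28 receptor genes (71.4%) reached 1 RPM. The ligands were low, with Tnfsf8 at 34.3 RPM, Tnf at 29.8 RPM, and Cd40lg, Fasl, Tnfsf11 and Tnfsf18 at 0 reads. Among the receptors Tnfrsf9, which encodes 4-1BB, led at 443 RPM and Tnfrsf1b at 325 RPM, while Cd40, by which helper T cells signal to dendritic cells, had 18.8 RPM.

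Lymphoid and cytotoxic families had the largest shares of genes at 0 reads after the interferons, to be read against 31.5% of all protein-coding symbols. Of 33 antigen receptor and lymphoid genes 21 had 0 reads, and only Ighm and Cd8a, at 18.4 and 1.41 RPM, reached 1 RPM. The recombinase genes Rag1 and Rag2 had 1 and 0 reads. Of 36 cytotoxic genes 22 had 0 reads, including Prf1, Gzma, Gzmb, Nkg7 and Ncr1, while the lectin-like receptors Klrk1 and Klrb1b had 21.7 and 20.8 RPM. Only 9 of those 22 had a unique share of 90% or more, and most of the others were granzyme and Ly49 genes, families of close copies.

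The antimicrobial, complement and growth factor lists had shares at 1 RPM or more of 51.4%, 55.8% and 47.6%, near the 55.6% of all protein-coding symbols. In the antimicrobial list 19 of 37 genes reached 1 RPM and 11 had 0 reads. Next to Lyz2 and Cybb stood Gm11428, named Wfdc17 in the current annotation, at 371 RPM and Irg1, which makes itaconate, at 139 RPM, while Nos2, the inducible nitric oxide synthase, had 7.48 RPM and the defensin genes Defb1, Defb3 and Defb4 had 0 reads. Of 43 complement genes 24 reached 1 RPM and 12 had 0 reads. C3, the positive regulator Cfp (properdin) at 1148 RPM and the C1q chains C1qa, C1qc and C1qb at 386, 308 and 289 RPM were abundant. The late components C6, C7, C8b and C9 had 0 reads, and so did Hc, which encodes C5. Among 42 growth factor genes 20 reached 1 RPM and 13 had 0 reads, led by Vegfa at 491 RPM, Tgfb1 at 378 RPM and Igf1 at 145 RPM.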

How the data were processed

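RNA was extracted with TRIzol and libraries were made with the TruSeq RNA kit, version 2, and read as 150-bp pairs, per the labels' protocols. That kit does not mark strand, so overlapping antisense genes cannot be told apart. Reads were aligned with TopHat2 2.0.13, per the submitters' processing notes, which name the human build GRCh37 although the identifiers are mouse Ensembl ones. No source used here names the counter. The authors' deposited values are on a log2 scale, per the file headers, in a column where 53.3% of cells held a spreadsheet error, read as 0. Their linear values were whole numbers within 1e-06 and were taken as read counts. The 2 columns of the other libraries were not used.

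Rows sharing a symbol were summed (37991 rows to 34590 symbols), after 25 damaged symbols were restored by identifier. Values were scaled to reads per 1000000. Lengths come from the GENCODE M21 principal transcript, chosen after merged-exon lengths had been seen, and covered 99.4% of reads. Of 1298 list entries 1290 were found, 15 by identifier. The members and all lists were chosen with earlier results of these data known, and the ribosomal, common-gene and proliferation lists after values were seen. Named genes were the 30 leading symbols, the 15 leaders of each class, marker genes, and examples from the 5 leading and the 0-read members of each family; further family members, subgroups and the TFEB-family genes were picked after their values were seen. With 1 library no test was possible. Decoding and intervals were tested on simulated data. Python 3 with numpy, pandas and scipy was used. Some results on single list members are not reported here.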

Additional observations from a re-analysis of the deposited data

How the results depend on the processing

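The number of symbols at 1 RPM or more, 12565, stayed within 1.5 times under each alternative run: 13577 at 0.5 RPM, 10368 at 5 RPM, 12588 with identifiers not summed and 12554 with mitochondrial genes left out of the total. The share of the 10 leading symbols was 12.1% with mitochondrial genes left out, outside the counting interval of the 12.4% reported, by construction, since mt-Co1 is one of the 10. Of the 30 leading symbols 18 remained per kilobase of the principal transcript and 15 per kilobase of merged exons, the latter length being an alternative chosen after seeing the data. By merged exons 9 of the 15 leading secreted genes remained, and for surface, lysosomal and transcription factor genes 12, 12 and 11. Some orders changed too: per kilobase of merged exons Fth1 was at rank 5 and Tmsb4x at rank 6, behind Cd74 at rank 2. The 165 family genes at 0 reads became 223 at 3 reads or fewer and 273 below 1 RPM, so a looser meaning of silent adds genes. No paired analysis was possible because each group has 1 sample. Depth limits statements on genes under 1 RPM: at 1 RPM the interval ran from 0.600 to 1.60 RPM, and 1 read (0.0563 RPM) had an interval of 0.0014 to 0.313 RPM.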

Other observations

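Reads of some cell cycle genes were found in this library. All 18 of a list reached 1 RPM, against 55.6% of all protein-coding symbols. That list was chosen after values were seen, so the count is a description only. Mki67, the antigen of dividing cells, had 3129 reads (176 RPM), Top2a, a topoisomerase of mitosis, 74.3 RPM, Cdk1, the mitotic kinase, 30.4 RPM, and Pcna, the replication clamp, 31.3 RPM with a unique share of 62.0%. Among replication helicase genes Mcm3 had 37.7 RPM and Mcm6 20.5 RPM. Ccnb1, a mitotic cyclin, was the lowest at 5.46 RPM with a unique share of 54.1%. The share of dividing cells cannot be read from these values.

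H2-Ea-ps, annotated as a polymorphic pseudogene in the reference, had 48278 reads (2716 RPM, interval 2692 to 2740.1) and rank 21, with a unique share of 100%. As background, this MHC class II chain is functional in some mouse haplotypes and not transcribed in others, and the strain is not given in the sources used here. Xist, the noncoding RNA of the inactive X chromosome, had 17188 reads (967 RPM), while the Y-linked genes Ddx3y, Eif2s3y, Kdm5d and Uty had 0 reads each. Processed pseudogenes at 100 RPM or more numbered 46 of 3856, and 661 reached 1 RPM.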
